A study of Mus musculus with 15 samples.

Results

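Scavenger receptors take up modified lipoproteins and cell debris, and efferocytosis receptors take up dying cells. The 9 genes described here are the scavenger receptors Msr1, Cd36, Scarb1 and Stab1, the endocytic receptor Lrp1, the receptor kinases Mertk and Axl, and their ligands Gas6 and Pros1. They were found by Entrez Gene ID among the 17892 genes with values in the deposited table of expected counts, which are estimates of the reads from each gene, and all 9 had values and passed the filter on low counts. The RNA came from PDGFRβ-positive cells isolated from mouse brain, in 15 libraries. The wild type (WT) gave 3 sham libraries and 4 taken 24 h after hypoxia-ischemia (HI) of the newborn, a brain injury that combines low oxygen with reduced blood flow. The miR-210 knockout (KO) gave 4 sham libraries and 4 taken 24 h after HI. The labels give no age, strain, knockout allele or sham procedure. Nor do they name the animal or animals behind a replicate, so p-values measure the spread between these libraries, which may be technical.

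Dying cells expose phosphatidylserine on their surface. MERTK and AXL, members of the TAM family of receptor tyrosine kinases, bind it through the bridging proteins GAS6 and protein S, the product of Pros1. GAS6 activates both receptors, and protein S activates MERTK rather than AXL. In the brain, MERTK is known from microglia and astrocytes, AXL from vascular cells and activated myeloid cells, and LRP1 from neurons, glia and mural cells. MSR1 and CD36 bind modified lipoproteins and are typical of macrophages, SCARB1 is a receptor for high density lipoprotein, and STAB1 clears altered proteins in endothelial cells and some macrophages.

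Because the mice differ in a microRNA, its mature sequence is shown first. The sequence is from RefSeq (GRCm38.p6, chr7:141221407-141221428, minus strand), 5′ to 3′, with the seed, bases 2 to 8, in capitals.

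miR-210-3p: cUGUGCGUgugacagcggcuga

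In the longest coding transcript of each gene (GENCODE M21, GRCm38), 0 of the 9 annotated 3′ UTRs held the 7 bases ACGCACA that pair with this seed, against 3.02% of 20952 genes with a UTR. The 6 bases CGCACA were also in 0 of the 9, against 8.07% of genes. No match says only that these letters are not in these annotated UTRs.

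Total expected counts ran from 15436376 to 18118697 per library, and the lowest count of any member in any library was 53 (Msr1 in KO sham 1 and 6). Levels are given in CPM, counts scaled by library size after TMM, edgeR's correction for library composition. The labelled cell type was present in all 4 groups: Pdgfrb averaged 860.5 CPM in WT sham, 925 in WT HI, 516 in KO sham and 356 in KO HI libraries. Markers of other cells were present too. The 12 microglia markers summed to 2495 to 3524 CPM in WT sham, 1511 to 4065 in WT HI, 3289 to 5739 in KO sham and 5380 to 11639 among the KO HI libraries, with none of them at 0. The 12 pericyte markers summed to 8387 to 11625, 6184 to 8641, 3001 to 8778 and 1762 to 5922 CPM in the same order. Neuron markers summed to 183 to 2024 CPM in 5 libraries (WT sham 2, KO sham 1 and 3, KO HI 2 and 3) and to 43.6 to 116 CPM in the other 10. Choroid plexus markers had their lowest sum in WT HI 1 (128 CPM) and their highest in KO HI 2 (53773 CPM). KO sham 3 came next below that maximum, with 27101 CPM. Astrocyte markers had their lowest sum in KO sham 4 (459 CPM) and their highest in KO sham 1 (13713 CPM). Of the HI libraries, KO HI 2 also had the lowest Msr1 and the highest Gas6, as given below. In RNA from mixed cells, fewer cells of a type and less RNA per cell cannot be told apart.

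Per kilobase of transcript, the ligand Gas6 was the highest member in uninjured WT cells and Msr1 the lowest. Gas6 stood at 109 ± 6.37 CPM per kb in WT sham (SD, n = 3), above the range of every other member. Scarb1 (80.6 ± 7.72), Axl (68.3 ± 5.29), Stab1 (65.9 ± 7.72) and Lrp1 (60.5 ± 1.93) followed in that order, and the ranges of neighbours in this row of 4 overlapped. Below them came Pros1 (47.4 ± 3.79), Mertk (20.4 ± 2.19), Cd36 (5.03 ± 1.72) and Msr1 (1.35 ± 0.40), each with a range that did not overlap that of the gene above it. After HI, Msr1 moved from the lowest place to the seventh, at 25.1 ± 6.46 in WT and 34.9 ± 18.3 in KO libraries (n = 4 each). Its range overlapped that of Mertk, next below, in both HI groups, and that of Axl, next above, in KO HI. In KO HI, Gas6 reached 211 ± 35.2 CPM per kb and was again above the range of every other member. These lengths are those of the longest annotated transcript and may differ from the ones the authors used.

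**Figure D1:**
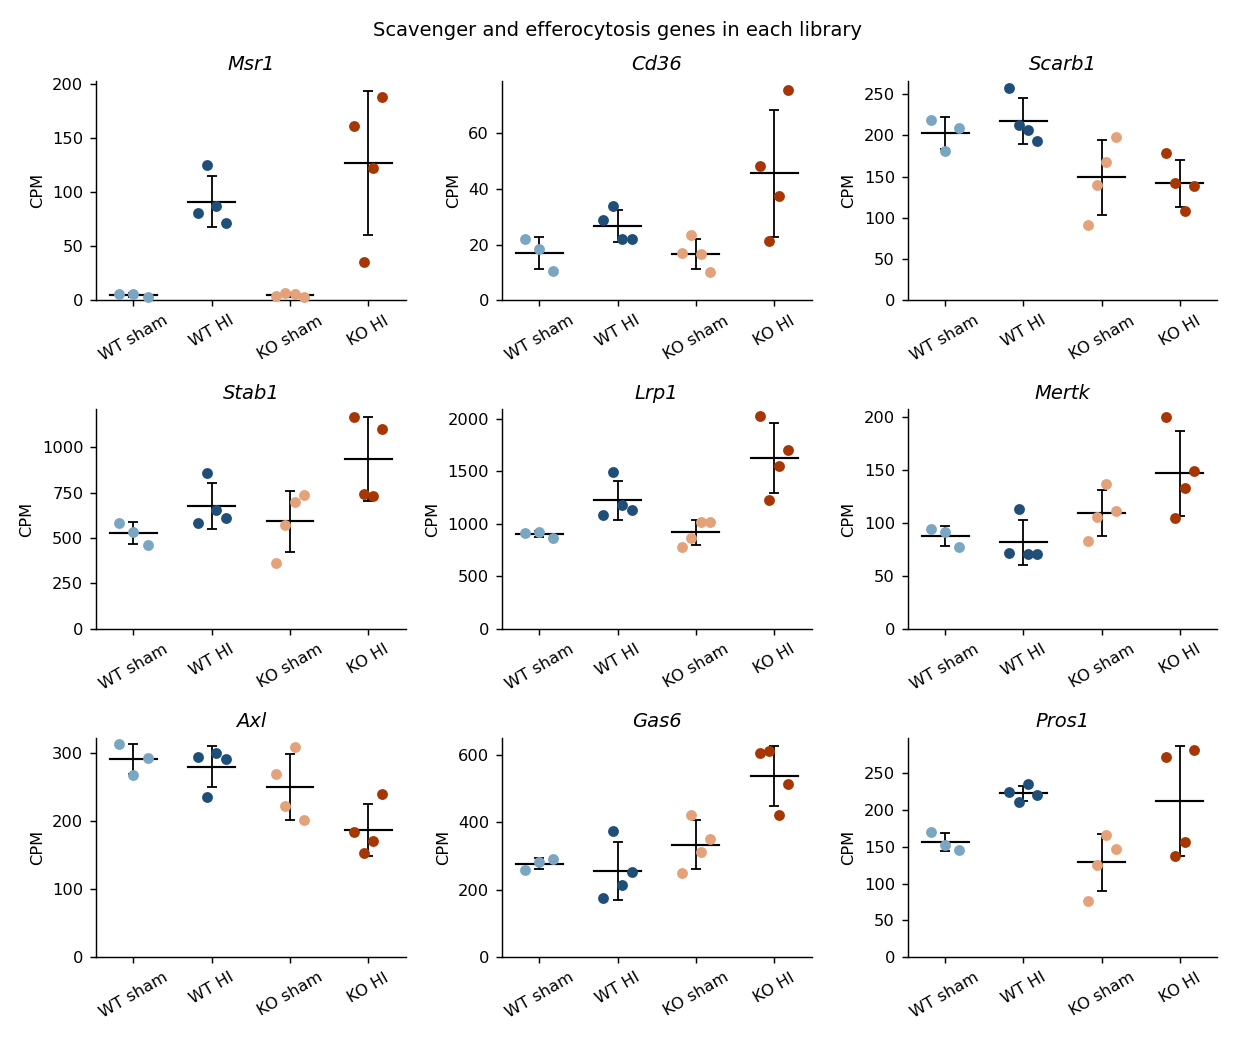
CPM of the 9 genes in each of the 15 libraries (points), with the mean (bar) and SD (whiskers) of each group on linear axes. Msr1 is at 2.91 to 6.35 CPM in all 7 sham libraries and at 35.3 to 188 CPM in all 8 HI libraries, while Gas6 is highest in KO HI and Axl lowest there.

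The first question is what HI did to these genes in each genotype. Msr1, the class A scavenger receptor of macrophages, rose in both. Its level was 5.66, 5.81 and 3.21 CPM in WT sham 1, 2 and 3. In WT HI 1, 2, 4 and 5 it was 81.0, 125, 87.7 and 71.4 CPM. It was 3.88, 6.35, 6.08 and 2.91 CPM in KO sham 1, 3, 4 and 6, and 161, 35.3, 123 and 188 CPM in KO HI 1 to 4. No sham library came near an HI library in either genotype, and the lowest injured library was KO HI 2. The increase was 18.6-fold in WT (log2 fold change 4.22 ± 0.53, SE; edgeR adjusted p = 0.00224) and 26.3-fold in KO (4.72 ± 0.48; edgeR adjusted p = 3.65e-04). The 2 responses differed by 0.50 ± 0.62 log2 units, less than the error of that difference.

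Summed microglia markers were lower in 3 of the 4 WT HI libraries than in any WT sham library. In KO they were at 3289 to 5739 CPM in sham and 5380 to 11639 CPM in HI libraries. Within the injured groups Msr1 was highest in WT HI 2, the WT HI library with the most markers, and lowest in KO HI 2, the KO HI library with the fewest. Per 1000 CPM of microglia markers, Msr1 was at 1.29 to 1.68 in WT sham and 30.8 to 52.6 in WT HI libraries. In KO the same ratio went from 0.53 to 1.28 in sham to 6.56 to 27.2 in HI libraries. The sham and HI ranges did not overlap on this scale in either genotype. Ccr2, a receptor of blood monocytes, rose in KO by 2.60 ± 0.57 log2 units, and the neutrophil genes S100a8 and S100a9 by 3.50 ± 0.80 and 3.51 ± 0.95. In WT no monocyte or neutrophil marker was called after HI, but the means of these genes were higher there too. In WT sham and WT HI libraries Ccr2 averaged 0.88 and 4.22 CPM, S100a8 0.68 and 3.93, and S100a9 0.87 and 5.21. The summed monocyte markers lay at 134 to 257 CPM in KO sham and 113 to 188 in KO HI libraries, and the neutrophil markers at 34.5 to 76.3 and 78.5 to 157. Most of the neutrophil sum was Csf3r, with means of 52.1 CPM in KO sham and 90.3 in KO HI, where the sums averaged 56.8 and 116. Ly6g was at 0 in 13 of the 15 libraries, including every HI library, so it says little about these groups. The part of these cells in the Msr1 result was not tested.

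Cd36, a receptor for oxidized lipoproteins and fatty acids, rose in KO and did not pass the test in WT. In KO sham 1, 3, 4 and 6 it was at 17.1, 23.3, 16.5 and 10.03 CPM. KO HI 1 to 4 had 48.1, 21.4, 37.5 and 75.5 CPM. The groups overlapped through KO HI 2, which lay below KO sham 3. The fitted change was 2.73-fold (1.45 ± 0.36, edgeR adjusted p = 0.0325). WT values were 22.1, 18.5 and 10.7 CPM in sham 1, 2 and 3 and 28.7, 33.9, 22.0 and 21.9 CPM in HI 1, 2, 4 and 5, a change of 0.64 ± 0.39 (adjusted p = 0.570). The difference between genotypes in the response was 0.81 ± 0.52 (adjusted p = 0.942). The KO call was lost without KO sham 4 (1.44, adjusted p = 0.0711), KO sham 6 (1.27, 0.0725), KO HI 1 (1.42, 0.0888) or KO HI 4 (1.07, 0.0739), over a range of 0.00187 to 0.217 among all alternatives. An edgeR fit of only the KO groups also lost it (1.41, adjusted p = 0.169). Per 1000 CPM of microglia markers, Cd36 was at 1.83 to 5.18 in KO sham and 3.97 to 10.9 in KO HI libraries, with overlap. Per 1000 CPM of pericyte markers it was at 1.88 to 5.68 and 7.53 to 21.3, without overlap. Per 1000 CPM of endothelial markers the KO ranges overlapped (1.32 to 6.11 and 4.89 to 16.2).

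Lrp1, the large endocytic receptor for apolipoprotein E, protease complexes and calreticulin, also rose in KO. Its levels were 776, 864, 1019 and 1017 CPM in KO sham 1, 3, 4 and 6. They were 2026, 1230, 1547 and 1702 CPM in KO HI 1 to 4, all above the sham libraries. The change was 1.77-fold (0.82 ± 0.16, edgeR adjusted p = 0.0113). In WT, sham 1, 2 and 3 had 914, 921 and 868 CPM and HI 1, 2, 4 and 5 had 1084, 1490, 1183 and 1131 CPM. These groups did not overlap either, but the change of 0.44 ± 0.17 did not pass the test over all genes (adjusted p = 0.275). Lrp1 lost its KO call in a fit of only the 2 KO groups (0.79, adjusted p = 0.125, in a range of 2.92e-06 to 0.125 over all alternatives). Per 1000 CPM of microglia markers, Lrp1 in KO was at 174 to 236 in sham and 174 to 248 in HI libraries, nearly the same range. On the same scale in WT it was at 261 to 348 and 367 to 749, without overlap. Per 1000 CPM of pericyte markers Lrp1 in KO was at 116 to 259 in sham and 287 to 878 in HI libraries. Per 1000 CPM of endothelial markers it was at 130 to 278 and 282 to 668, again without overlap. The part of the microglia markers, which were at higher levels in most KO HI than KO sham libraries, was not tested for Cd36 or Lrp1.

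The other members passed in neither genotype. Stab1 was at 363 to 734 CPM in KO sham and 730 to 1167 in KO HI libraries (0.66 ± 0.23, adjusted p = 0.104), and at 462 to 585 and 585 to 860 CPM in WT (0.36 ± 0.25, adjusted p = 0.634). Scarb1 changed by -0.07 ± 0.21 in KO and 0.10 ± 0.22 in WT. Of the ligands, Pros1 was at 146 to 170 CPM in WT sham and 210.5 to 235 in WT HI without overlap (0.51 ± 0.27, adjusted p = 0.482). Gas6 was at 249 to 422.4 CPM in KO sham and 422.5 to 613 in KO HI, groups that nearly touched (0.69 ± 0.22, adjusted p = 0.0786). For the receptors Mertk and Axl the KO changes were 0.43 ± 0.21 and -0.42 ± 0.16 (adjusted p = 0.271 and 0.134), in opposite directions and without a call.

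By count, 1 of the 9 members was called in WT, where 1.82% of the 14853 genes tested were called in either direction. In KO 3 of 9 were called, all higher, against 7.01% of genes in either direction (4.88% higher and 2.13% lower). The median change of the members was 0.36 log2 units in WT and 0.69 in KO, beside -0.01 and -0.06 over all genes tested. Groups did not overlap and HI was higher for 4 of 9 members in WT (15.9% of all genes) and for 3 of 9 in KO (6.06% of all genes). These counts include near ties. Stab1 was at 584.9 CPM in WT sham 1 and 585.1 in WT HI 1, and Gas6 at 422.4 in KO sham 3 and 422.5 in KO HI 3. Without the 5 libraries with the most neuron markers the number called was 2 in WT and 5 in KO, where 5.13% and 16.8% of all genes were called in the same fit. Besides the WT HI libraries, that fit kept only WT sham 1 and 3, KO sham 4 and 6, and KO HI 1 and 4. The difference of the HI responses between genotypes was called for 0 of 9 members by edgeR, as it was for 0% of all genes. Only Gas6 had an unadjusted p under 0.05 there (0.81 ± 0.32, adjusted p = 0.932), and DESeq2 and limma-voom also called 0 members.

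**Figure D2:**
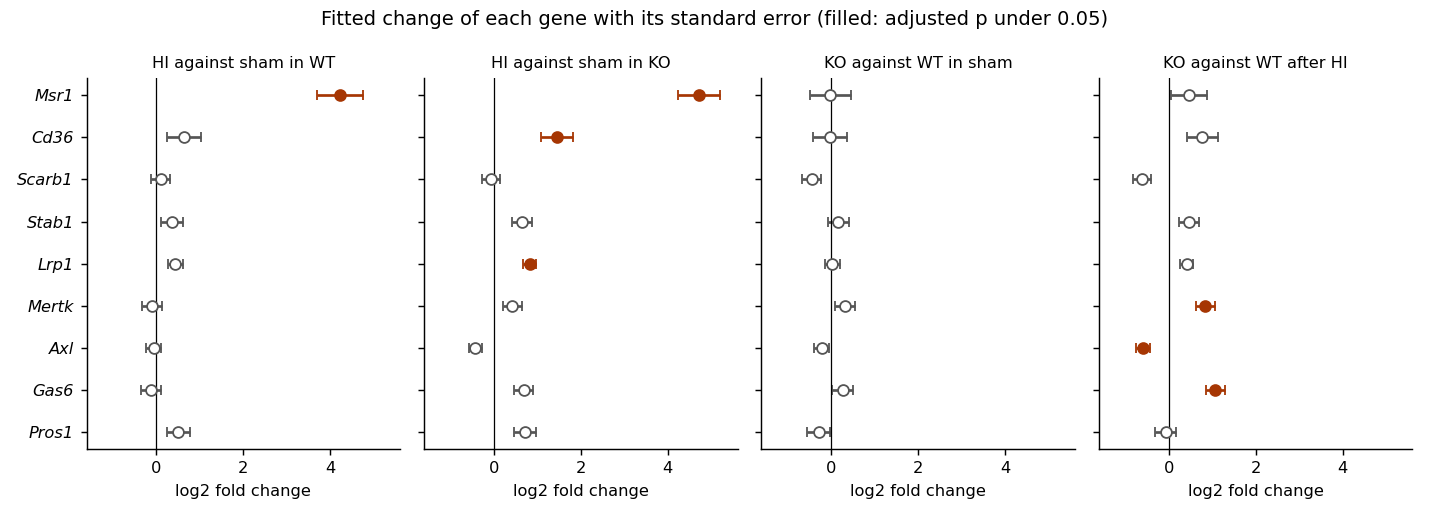
Log2 fold change with its SE for the 9 genes in the 4 pairwise comparisons, on 1 shared axis (filled points: edgeR adjusted p under 0.05). Msr1 is near 4.22 and 4.72 after HI, and Mertk (0.85), Gas6 (1.08) and Axl (-0.58) are the called members between genotypes after HI.

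The next question is how the genotypes differed. These comparisons use the same libraries as those of HI against sham, so they are not independent of them. In sham libraries 0 of 9 members were called by edgeR, against 0.0135% of all genes (0.00673% higher and 0.00673% lower). None had an unadjusted p under 0.05 in edgeR, and DESeq2 and limma-voom also called 0. The estimate farthest from 0 was that of Scarb1, at -0.45 ± 0.22 (adjusted p = 0.477). Msr1 and Cd36 had nearly the same means in both sham groups, 4.89 ± 1.46 CPM in WT (SD, n = 3) and 4.80 ± 1.68 in KO (n = 4) for Msr1, and 17.1 ± 5.83 and 16.7 ± 5.42 for Cd36. The fitted differences were -0.02 ± 0.47 and -0.03 ± 0.39 log2 units. For all 9 members the sham groups overlapped, where 4.63% of all genes were higher and 5.49% lower in KO without overlap.

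After HI, 3 of 9 members were called between genotypes, all from the TAM system, against 12.4% of all genes. Gas6 and Mertk were higher in KO (5.96% of all genes) and Axl was lower (6.46% of all genes). Since these genes carry the comparison, the RefSeq sequence around their annotated start (GRCm38.p6, an older build than the mm39 named by the submitters) is shown with that of the other ligand, Pros1, from 250 bases before to 50 after the start, 5′ to 3′ on the gene's strand. Capitals mark the GC box letters GGGCGG on either strand. The windows are chr2:128698665-128698964 (plus strand) for Mertk, chr7:25788684-25788983 (minus) for Axl, chr8:13494486-13494785 (minus) for Gas6 and chr16:62854057-62854356 (plus) for Pros1.

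Mertk: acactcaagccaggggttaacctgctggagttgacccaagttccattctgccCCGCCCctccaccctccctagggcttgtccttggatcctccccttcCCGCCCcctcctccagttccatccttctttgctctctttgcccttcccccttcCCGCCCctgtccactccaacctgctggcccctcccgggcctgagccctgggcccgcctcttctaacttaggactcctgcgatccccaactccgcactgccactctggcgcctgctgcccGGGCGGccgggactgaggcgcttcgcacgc
Axl: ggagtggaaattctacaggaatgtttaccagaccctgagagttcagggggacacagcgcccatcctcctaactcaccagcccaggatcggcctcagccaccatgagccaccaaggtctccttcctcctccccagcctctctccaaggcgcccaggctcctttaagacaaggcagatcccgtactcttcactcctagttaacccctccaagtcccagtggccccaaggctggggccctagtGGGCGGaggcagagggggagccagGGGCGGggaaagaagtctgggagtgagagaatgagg
Gas6: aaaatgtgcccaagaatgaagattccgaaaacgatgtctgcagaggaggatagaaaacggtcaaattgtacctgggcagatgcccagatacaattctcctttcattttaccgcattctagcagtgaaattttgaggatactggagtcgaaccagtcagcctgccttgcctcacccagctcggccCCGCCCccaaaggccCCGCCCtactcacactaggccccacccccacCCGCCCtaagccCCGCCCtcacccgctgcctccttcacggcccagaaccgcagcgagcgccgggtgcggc
Pros1: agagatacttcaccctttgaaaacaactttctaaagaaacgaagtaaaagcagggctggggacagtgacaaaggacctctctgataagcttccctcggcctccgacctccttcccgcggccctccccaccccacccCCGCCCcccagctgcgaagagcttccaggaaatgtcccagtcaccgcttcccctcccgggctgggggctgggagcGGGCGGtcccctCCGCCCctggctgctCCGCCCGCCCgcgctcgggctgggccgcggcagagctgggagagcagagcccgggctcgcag

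The GC box, a motif of many promoters, occurred 4 times in Mertk, 2 in Axl, 4 in Gas6 and 5 in Pros1, where 1 pair overlaps. It was in 6 of the 7 members with a promoter entry and in 35.7% of 32851 mouse promoters of the same length. GAGGAA, the core of sites for the myeloid factor PU.1, was in 2 of 7 (Axl and Stab1) and in 28.3% of promoters. The AP-1 letters TGANTCA and the hypoxia response core ACGTG were in 0 of 7, against 7.81% and 19.6% of promoters. All were searched on both strands, and a match is a description, not a binding site. The GC content was 66.0% in the Mertk, 60.3% in the Axl, 58.3% in the Gas6 and 66.7% in the Pros1 window, above the median of 52.7% over all promoters. So the genes that were higher and the one that was lower share this GC box feature.

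Gas6, the ligand of both receptors, was at 177, 376, 214 and 254 CPM in WT HI 1, 2, 4 and 5. In KO HI 1 to 4 it was at 605, 613, 422.5 and 513 CPM. Every KO library was above every WT library, and WT HI 2 was the highest of the WT group. The difference was 2.11-fold (1.08 ± 0.22, edgeR adjusted p = 0.0112). Mertk, the receptor with which microglia and macrophages engulf dying cells, was at 71.4, 113, 70.6 and 70.9 CPM in WT HI 1, 2, 4 and 5. KO HI 1 to 4 had 200, 105, 133 and 149 CPM. The groups overlapped only through WT HI 2 and KO HI 2. Mertk was 1.80-fold higher in KO (0.85 ± 0.22, edgeR adjusted p = 0.0243).

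Axl, the receptor that responds to GAS6 and is induced by inflammation in other settings, was lower in KO. It was at 294, 235, 300.2 and 291 CPM in WT HI 1, 2, 4 and 5. The levels in KO HI 1 to 4 were 184, 154, 170.3 and 240.4 CPM. WT HI 2 was again the library nearest to the KO group, and KO HI 4 lay just above it. Axl was 1.50-fold lower in KO (-0.58 ± 0.16, edgeR adjusted p = 0.0313). Pros1 did not differ beyond its error (-0.07 ± 0.25, adjusted p = 0.862), with 210.5 to 235 CPM in the WT and 138 to 281 CPM in the KO libraries. It had a narrow range in WT, and KO HI 1 and 4 lay above that range while KO HI 2 and 3 lay below it.

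The Mertk and Axl calls were lost when certain single libraries were left out. Both were lost without WT HI 1 (adjusted p = 0.0835 and 0.0907), WT HI 4 (0.0799 and 0.0902), WT HI 5 (0.0906 and 0.0804) or KO HI 1 (0.0758 and 0.0784), and Axl also without KO HI 2 (0.0670) or KO HI 3 (0.0823). Over all alternatives the adjusted p ran from 0.00142 to 0.165 for Mertk, from 0.00318 to 0.133 for Axl and from 4.94e-05 to 0.0809 for Gas6, whose call was kept when any 1 library was left out. Without WT HI 2 the differences were 1.05 for Mertk, -0.66 for Axl and 1.32 for Gas6, all called.

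Among the scavenger receptors after HI, Scarb1 was lower in every KO library (108 to 178 CPM) than in every WT library (193 to 258 CPM), and the change of -0.62 ± 0.21 missed the threshold (adjusted p = 0.0674). Lrp1 (0.41 ± 0.16), Stab1 (0.47 ± 0.23), Cd36 (0.78 ± 0.36) and Msr1 (0.47 ± 0.41) had positive estimates with overlapping groups and adjusted p-values between 0.101 and 0.431. Non-overlapping groups were found for 1 of 9 members higher (9.89% of all genes) and 1 of 9 lower (11.5% of all genes). The median member changed by 0.47 log2 units beside 0.06 over all genes. Without the 5 libraries with the most neuron markers, 8 of 9 were called, against 23.5% of all genes in that fit, and Axl was not (-0.42, adjusted p = 0.133). Of the KO HI libraries that fit kept only KO HI 1 and 4.

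Cell type markers moved with the TAM result. All 12 microglia markers were called higher in KO after HI, with a median of 1.78 log2 units, as were 5 of 9 border macrophage markers, among them Mrc1 (1.33 ± 0.29). Of the pericyte markers 5 of 12 were called lower, including Pdgfrb (-1.38 ± 0.35), and of the endothelial markers 7 of 10, including Pecam1 (-1.26 ± 0.29). Over all genes 5.96% were called higher and 6.46% lower in this comparison. WT HI 2 had 4065 CPM of microglia markers against 1511 to 1669 in the other 3 WT HI libraries. Per 1000 CPM of microglia markers, Mertk was at 27.8 to 46.9 in injured WT and 17.2 to 21.5 in injured KO libraries, the opposite order to its CPM, and at 26.0 to 30.8 and 20.3 to 25.3 in WT and KO sham. Per 1000 CPM of pericyte markers Mertk kept the order of its CPM, at 8.27 to 18.3 in injured WT and 25.2 to 75.4 in injured KO. Gas6 was at 92.5 to 168 and 52.0 to 114 per 1000 CPM of microglia markers, with overlap, and at 20.5 to 60.8 and 86.6 to 239.8 per 1000 CPM of pericyte markers, in the order of its CPM. The scale also set the order for Axl. It was at 34.0 to 38.1 in injured WT and 40.6 to 96.6 in injured KO per 1000 CPM of pericyte markers, opposite to its CPM. Per 1000 CPM of endothelial markers the ranges overlapped (30.9 to 36.9 and 35.2 to 73.5), and per 1000 CPM of microglia markers they kept the order of the CPM (57.9 to 192 and 15.8 to 34.8). These ratios are descriptions, and the part of cell composition in the TAM result was not tested further.

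**Figure D3:**
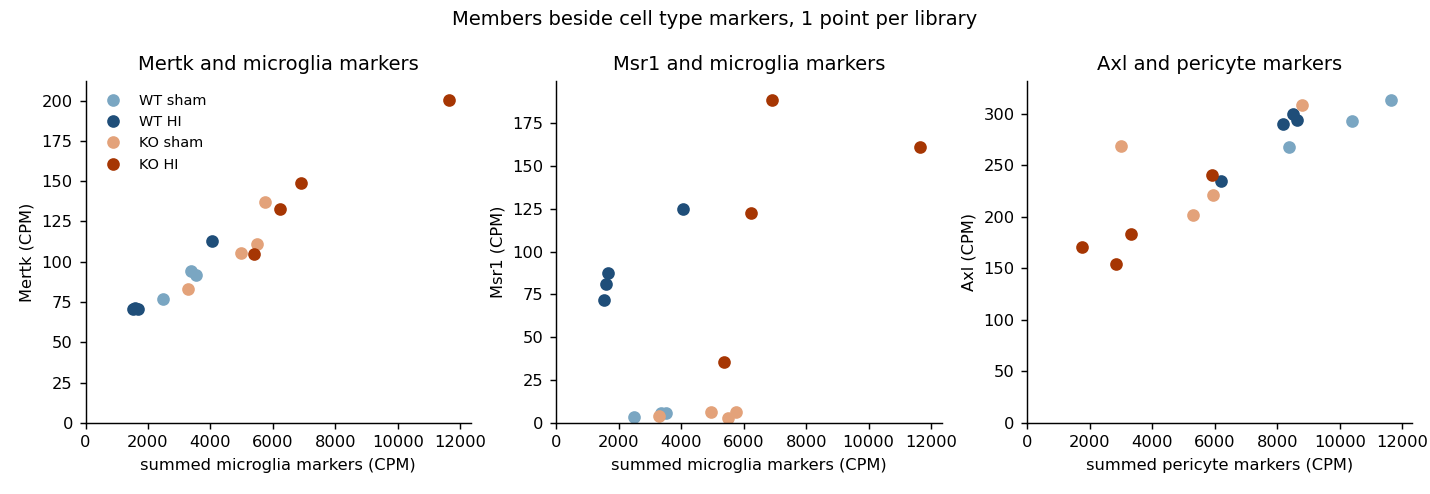
Mertk and Msr1 against summed microglia markers, and Axl against summed pericyte markers, in CPM on linear axes with 1 point per library. Mertk tends to be higher where the markers are higher, across all 4 groups, with WT HI 2 (4065 CPM of markers, Mertk 113 CPM) beyond the other WT HI libraries, while for Msr1 the HI libraries lie above the 7 sham libraries at any marker level.

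The balance of the 2 receptors within each library is given as a description with no test. The ratio was chosen after the values were seen, from a gene called higher and a gene called lower in KO after HI, which fixes its direction there. The Mertk to Axl ratio was 0.30, 0.34 and 0.26 in WT sham 1, 2 and 3, and 0.24, 0.48, 0.24 and 0.24 in WT HI 1, 2, 4 and 5. KO sham 1, 3, 4 and 6 had 0.31, 0.48, 0.44 and 0.55, and KO HI 1 to 4 had 1.09, 0.68, 0.78 and 0.62. All KO HI libraries were above all others. The mean log2 ratio was -0.37 ± 0.36 in KO HI, -1.81 ± 0.50 in WT HI and -1.20 ± 0.35 in KO sham (SD, n = 4 each), and -1.74 ± 0.19 in WT sham (n = 3).

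The balance of the ligands, also chosen after the values were seen, is a description too. Gas6 to Pros1 stood at 1.52, 1.86 and 1.99 in WT sham 1, 2 and 3 and at 0.79, 1.79, 0.91 and 1.16 in WT HI 1, 2, 4 and 5. In KO it was 3.24, 3.36, 1.89 and 2.4 in sham 1, 3, 4 and 6 and 2.22, 4.44, 2.70 and 1.82 in HI 1 to 4. WT HI 1, 4 and 5 lay below all other libraries. The KO groups overlapped, at 1.89 to 3.36 in sham and 1.82 to 4.44 in HI, where KO HI 2 lay above every KO sham library. The mean log2 ratio was 0.14 ± 0.52 in WT HI, 1.4 ± 0.55 in KO HI and 1.41 ± 0.39 in KO sham (SD, n = 4 each), and 0.83 ± 0.20 in WT sham (n = 3).

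**Figure D4:**
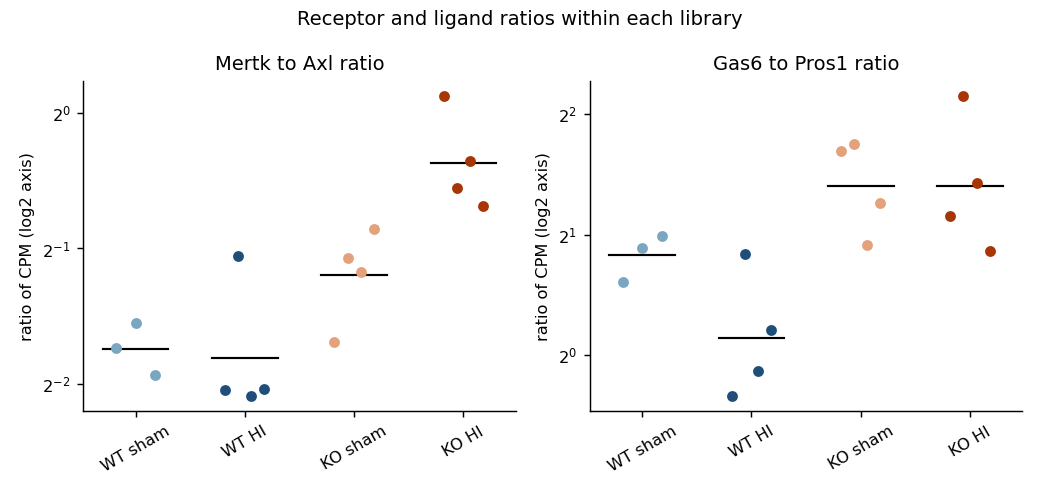
Ratio of Mertk to Axl and of Gas6 to Pros1 within each library (points) on log2 axes, with the geometric mean of each group (bar). The 4 KO HI libraries have Mertk to Axl ratios of 0.62 to 1.09, above the 0.24 to 0.55 of the other 11, and WT HI 1, 4 and 5 have the lowest Gas6 to Pros1 ratios.

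Other genes of these pathways were followed in 7 lists with 116 genes in all. Over all genes tested, 1.38% were called higher and 0.444% lower after HI in WT, and 4.88% and 2.13% in KO. Between genotypes after HI, 5.96% of all genes were called higher and 6.46% lower in KO. Of the efferocytosis receptors and bridging molecules besides the members, 18 of 19 were tested. In WT 2 rose after HI, the bridging protein Thbs1 (1.97 ± 0.29) and the lipid-sensing receptor Cd300lf (2.78 ± 0.61). In KO 5 rose, including Thbs1 (1.52 ± 0.25), Cd300lf (3.14 ± 0.55) and Cd300lb (2.96 ± 0.64), and Mfge8 fell (-0.65 ± 0.13). Mfge8 encodes the phosphatidylserine bridge to integrins and went from 422 ± 52.0 to 269 ± 49.8 CPM (SD, n = 4 each). Between genotypes after HI 5 were higher and 3 lower in KO. The complement genes C1qa (1.57 ± 0.31), C1qb (1.58 ± 0.33) and C1qc (1.49 ± 0.33), which tag debris, and the integrin Itgb5 (0.82 ± 0.17) were among the higher ones. Trem2 of this list is itself a microglia marker, and the part of cell composition in these differences was not tested.

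Genes of the engulfment machinery did not pass in WT after HI (0 of 17 by edgeR). In KO 4 of 17 rose, among them the guanine exchange factor Vav1 (1.39 ± 0.35), the GTPase Rac2 (1.26 ± 0.32) and the adaptor Tyrobp (1.38 ± 0.37), and the adhesion kinase Ptk2 fell (-0.78 ± 0.16). After HI 5 were higher in KO than WT, including Rac2 (1.47 ± 0.33), Dock2 (1.48 ± 0.34) and Tyrobp (1.57 ± 0.37), and Ptk2 was lower (-0.91 ± 0.16). Rac2, Dock2, Vav1 and Tyrobp are genes of blood cells and microglia. Of the 12 microglia markers, all were called higher in KO than WT after HI. Only 1 of the 12 was called higher after HI in KO, where their median change was 0.47 log2 units. The part of cell composition in the engulfment genes was not tested.

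Of 14 find-me and keep-out signals, WT cells after HI had higher P2ry2, a receptor for the nucleotides that dying cells release (2.56 ± 0.37), and Cd47, the signal against engulfment (0.46 ± 0.10). The microglial nucleotide receptor P2ry12 was lower (-2.19 ± 0.45). In KO, P2ry6 rose (1.09 ± 0.28) and S1pr1 fell (-0.61 ± 0.12). After HI 5 were higher in KO, among them Siglece (2.30 ± 0.37), P2ry12 (2.45 ± 0.43) and P2ry6 (1.51 ± 0.28), and 3 were lower, including S1pr1 (-0.63 ± 0.12). P2ry12 and Cx3cr1 of this list are themselves among the microglia markers, all of which were called higher in this comparison. The part of cell composition in these signals was not tested.

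Of 16 other scavenger receptors 1 rose in WT, Cd5l (2.94 ± 0.44), a secreted macrophage protein that was at 7.54 ± 2.05 CPM in WT HI (SD, n = 4). In KO 5 rose and none fell. They included Cd5l (3.03 ± 0.39), the transmembrane chemokine Cxcl16 (2.56 ± 0.36), which binds oxidized lipoprotein, the endotoxin receptor Cd14 (2.35 ± 0.44) and the lysosomal Cd68 (1.73 ± 0.38). After HI 3 were higher in KO than WT, Mrc1, Cd163 (1.34 ± 0.36) and Cd68 (1.45 ± 0.38). Mrc1 and Cd163 are themselves in the list of border macrophage markers.

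Among 19 LDL receptor family genes and ligands of LRP1, those that rose in KO after HI included the urokinase Plau (1.34 ± 0.22), the receptor Lrp12 (0.87 ± 0.15) and the eat-me signal Calr (0.73 ± 0.14). After HI Apoe was higher in KO than WT (1.21 ± 0.30), at 4227 ± 373 against 1830 ± 293 CPM (SD, n = 4 each). The matrix protein Hspg2 (-1.17 ± 0.27) and the protease Plat (-1.38 ± 0.37) were lower. So these called LRP1 ligands differed in direction.

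Of 19 genes that handle lipid after uptake, 5 rose in WT and 9 in KO, and none fell. The lipid droplet protein Plin2 rose by 2.17 ± 0.38 in WT and 2.84 ± 0.35 in KO, and the lipase Lpl by 2.67 ± 0.47 and 3.76 ± 0.44. Ch25h, which makes an oxysterol, rose by 3.48 ± 0.45 and 3.42 ± 0.41. Fabp4 rose in WT (2.80 ± 0.46) and the cholesterol esterifying enzyme Soat1 in KO (1.31 ± 0.18). After HI 4 were higher in KO, among them Npc2 (0.83 ± 0.12), Npc1 (0.64 ± 0.17) and Soat1 (0.66 ± 0.17), and 3 were lower, among them the sterol receptor Nr1h3 (-1.02 ± 0.27).

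Of 13 genes of TAM shedding and signalling, Lgals3, a lectin reported as a ligand of MERTK, rose by 3.38 ± 0.42 in WT and 3.57 ± 0.38 in KO. In KO, Ptprc, the leukocyte phosphatase CD45 (1.38 ± 0.32), and the adaptor Grb2 (0.37 ± 0.10) rose as well. After HI Ptprc (1.28 ± 0.32) and Grb2 (0.48 ± 0.10) were higher in KO and Timp3, an inhibitor of the shedding proteases, was lower (-0.72 ± 0.21). Of these 7 lists, 0 genes were called between genotypes without injury or for the difference of HI responses by edgeR. Over all genes the shares called were 0.0135% and 0%.

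The genes whose log2 CPM ran most like that of a member over the 15 libraries differed between members. All share libraries and groups, so these correlations are descriptions. For Msr1 they were Adam8, Lilrb4a and Htr2b (r = 0.98 each), and for Cd36 Clec4n (0.97), Nrap (0.93) and Ms4a6c (0.93). Mertk ran with Ikzf1 and Adcy7 (0.98 each), and after subtraction of the group means the r for these was 0.97 and 0.96. Axl ran with Tspan2 (0.96), Fam20a (0.95) and Trim62 (0.94), Gas6 with Galnt12 (0.95), Nfatc2 (0.94) and Psap (0.94), and Pros1 with Eif4g1 (0.99), Ctdp1 (0.97) and Irak4 (0.97). For Scarb1 they were Ppard (0.98), Kdelr1 and Impdh1 (0.97 each), for Stab1 Hs1bp3 (0.98), Ncoa3 (0.97) and Nup153 (0.97), and for Lrp1 Mfsd1, Tpd52 and Vac14 (0.98 each). No member was among the 3 genes most like another member.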

How the data were processed

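RNA was measured in 15 libraries of isolated PDGFRβ-positive cells. The authors deposited 1 table of expected counts per gene, without normalization. The header names no unit, and it was read from the values (3.12% to 3.92% per library not whole) and from RSEM among the tools. Per the submitters' processing notes these were HISAT2 2.1.0, Bowtie2 2.4.4, Bowtie, RSEM 1.3.1 and DESeq2 1.4.5 with build mm39, with no role or order. Of 65535 lines 17892 had values, and 17862 of these were matched to symbols by Entrez ID.

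Expected counts were rounded. The 14853 genes that passed filterByExpr were fitted as 4 group means over 15 libraries with edgeR 4.0.16 (TMM, glmQLFit, glmQLFTest; R 4.3.3), tested in 5 contrasts, with p-values adjusted by Benjamini and Hochberg over all of them and a threshold of 0.05 for a call. Adjusted p-values in the text are from this fit unless another is named. SEs of log2 fold changes derive from its F statistic. The fit was tested on simulated counts with known changes. These were drawn without differences in cell composition or links between replicates, so that test does not cover either. CPM used the same library sizes, and correlations used log2 CPM with a prior count of 2. Per-kilobase levels used the longest coding transcript in GENCODE M21. Alternatives were DESeq2 1.42.0, limma-voom (limma 3.58.1), other scaling, no filter, robust dispersion, only the groups compared, a replicate block, neuron and choroid covariates, and left-out libraries.

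The members and lists were chosen with earlier results of these data known. Named are all 9 members, up to 4 called genes with the smallest p per list and pairwise contrast, and the 3 genes most correlated with each member. Marker genes are named as examples of their lists. Some genes these rules select are not reported here.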

Additional observations from a re-analysis of the deposited data

Results flagged for a closer look

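In WT HI 2, Mertk (113 CPM) stood far above the other 3 WT HI libraries (70.6 to 71.4 CPM), a gap of 0.98 of the group's whole range. Axl in the same library (235 CPM) stood below the other 3 (291 to 300.2 CPM), a gap of 0.85 of the range. Both gaps exceed Dixon's 95% critical value for 4 samples. The test was made in 27 groups of 4 libraries, and chance flags about 1 in 20 groups. This library also had 4065 CPM of summed microglia markers against 1511 to 1669 CPM in the other 3.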

How the results depend on the processing

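The count of the 9 members called was recomputed under 25 alternatives per pairwise contrast, and 24 for the difference of responses. After HI in WT it was 1, and 3 in a fit of only the groups of the contrast, 2 without the 5 libraries high in neuron markers and 0 with the replicate block. In KO it was 3, and 6 with DESeq2, 6 with neuron and choroid covariates, 5 without the 5 libraries, 1 in a fit of only those groups and 1 with the block. Between genotypes after HI it was 3, and 5 with DESeq2, 5 with the covariates, 8 without the 5 libraries and 0 with the block, and it ran from 1 to 4 when 1 library was left out. The genotype difference of Pros1 after HI turned from -0.07 to 0.29 without the 5 libraries. Counts of 0 without injury and for the difference of responses held under every alternative run. The causes of these shifts were not tested.

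The labels do not say what a replicate number marks. Over 10 same-numbered pairs the correlation of deviations from the group means ran from -0.78 to 0.79 and was over 0.1 in 7. The only negative values, -0.78 and -0.61, came from pairs with KO sham 1, the library with the highest neuron and astrocyte marker sums. The correlations do not settle whether the numbers pair libraries, so the block was kept as an alternative. With the block Msr1 was called in KO (and in no other contrast), with adjusted p-values of 0.0640 for Msr1, in WT, and 0.0809 for Gas6, 0.165 for Mertk and 0.0655 for Axl between genotypes after HI. The KO calls of Cd36 and Lrp1 after HI were also lost with the block (edgeR adjusted p = 0.217 and 0.106). The block left 16 genes called in WT, 73 in KO and 21 between genotypes after HI, against 271, 1041 and 1844 without it. Other counts over all genes that moved by over 1.5 times were 2443 (WT) and 16 (KO) in fits of only the groups compared, 782, 1932 and 3399 with DESeq2, 750, 2458 and 3440 without the 5 libraries, and 1389 and 2580 with covariates (WT and KO). Leaving out 1 library gave 48 to 554 in WT, 355 to 1927 in KO and 481 to 3605 between genotypes after HI. Between sham groups, 2 genes were called, 32 with DESeq2, 16 with covariates, 5 without the 5 libraries, 0 with limma-voom and 1 with the block. For the difference of responses, 0 were called, 22 with DESeq2, 1 with covariates and 0 to 2 when 1 library was left out.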
